A study of Mus musculus with 16 samples.

Results

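The S100 genes described here are S100a4, S100a6, S100a8, S100a9, S100a10, S100a11 and S100a13, chosen by symbol as 7 of the 27998 genes counted in lineage-depleted mouse bone marrow. The files hold 11 other genes whose symbol begins with S100. Single cells were profiled by 10x 3' RNA sequencing from C57BL/6 mice of 6 to 12 weeks that carried floxed Tet2 alleles without Cre (Tet2fl/fl, called WT) or carried Vav-Cre, which removes Tet2 in all blood cells (labelled Vav-Cre-Tet2-/-, called Tet2-KO). Both genotypes received vehicle or 500 ng of recombinant IL1β per mouse and day, injected intraperitoneally for 5 weeks. Each of the 4 groups (WT vehicle, WT IL1β, Tet2-KO vehicle and Tet2-KO IL1β) held 4 mice, and each of the 8 libraries pooled a pair of mice from the same group, whose cells were separated afterwards by hashtag. A kit had depleted mature lineage cells before loading, so the neutrophils and monocytes are those that passed it. Mice that share a library also share its free RNA, which bears on S100a8 and S100a9.

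S100 proteins are small calcium-binding proteins that work as dimers, inside the cell on the cytoskeleton and membranes and, once released, as signals of tissue damage. S100a8 and S100a9 pair to form calprotectin, which fills the cytosol of neutrophils, binds zinc and manganese and, outside the cell, is read by Tlr4 and the receptor Ager. S100a10 binds annexin A2 and S100a11 binds annexin A1 at membranes, S100a4 binds non-muscle myosin, S100a6 (calcyclin) is found in many motile and growing cells, and S100a13 takes part in the export of proteins that lack a signal peptide, IL1α among them.

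All 7 genes lie on mouse chromosome 3 in 2 neighbourhoods of the RefSeq annotation of GRCm38.p6. S100a13 (chr3:90514233-90524581), S100a4 (chr3:90603770-90606045), S100a6 (chr3:90612894-90614414) and S100a8 (chr3:90669071-90670034) are on the plus strand, S100a9 (chr3:90692630-90695721) is on the minus strand, and S100a11 (chr3:93520496-93526288) and S100a10 (chr3:93555117-93564645) lie farther along. The RefSeq promoter table held 6 of the 7 genes and not S100a10. The 250 bases before the start site are shown, 5′ to 3′ on the gene's strand, for the calprotectin pair and for its neighbours S100a4 and S100a6. Capitals mark matches on either strand to the letters TATAAA of a TATA box. They also mark CCAAT as in a CCAAT box. The core of PU.1 sites was searched as GAGGAA on both strands, that of C/EBP sites as TTNNGNAA with N for any base, and that of AP-1 sites as TGANTCA in the same way.

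S100a8, chr3:90668821-90669070, plus strand: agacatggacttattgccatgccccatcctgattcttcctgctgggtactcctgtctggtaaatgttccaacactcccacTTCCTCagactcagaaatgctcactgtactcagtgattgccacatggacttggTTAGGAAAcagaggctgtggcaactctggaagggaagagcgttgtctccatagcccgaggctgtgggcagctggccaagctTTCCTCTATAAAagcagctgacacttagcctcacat
S100a9, chr3:90695722-90695971, minus strand: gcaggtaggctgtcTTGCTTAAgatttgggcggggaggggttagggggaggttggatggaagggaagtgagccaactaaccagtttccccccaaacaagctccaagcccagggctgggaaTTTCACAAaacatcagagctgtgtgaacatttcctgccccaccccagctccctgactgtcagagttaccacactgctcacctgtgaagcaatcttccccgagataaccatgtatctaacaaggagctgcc
S100a4, chr3:90603520-90603769, plus strand: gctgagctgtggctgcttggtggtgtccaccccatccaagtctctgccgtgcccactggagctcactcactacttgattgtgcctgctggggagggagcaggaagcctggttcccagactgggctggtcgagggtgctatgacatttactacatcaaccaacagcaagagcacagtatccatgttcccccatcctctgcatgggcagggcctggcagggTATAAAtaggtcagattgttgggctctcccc
S100a6, chr3:90612644-90612893, plus strand: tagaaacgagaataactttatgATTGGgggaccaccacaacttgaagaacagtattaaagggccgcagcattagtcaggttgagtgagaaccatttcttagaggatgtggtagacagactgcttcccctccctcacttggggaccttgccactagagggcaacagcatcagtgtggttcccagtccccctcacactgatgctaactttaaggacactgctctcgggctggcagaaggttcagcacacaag

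The S100a8 window held GAGGAA at 170 to 165 and at 36 to 31 bases before the start, TTNNGNAA at 117 to 110 and TATAAA at 30 to 25, where the second GAGGAA and the TATAAA are adjacent without overlap. TTNNGNAA was found in the S100a9 window at 236 to 229 and at 130 to 123 bases, and S100a8 and S100a9 were the only members of the 6 with this match. The S100a13 window (chr3:90514185-90514434) lies mostly inside the annotated gene rather than upstream of it and held none of the 5 matches. TATAAA also stood in the S100a4 window at 31 to 26 bases, and CCAAT in the S100a6 window at 228 to 224 bases. The S100a11 window, not shown, held GAGGAA at 153 to 148 bases and TGANTCA at 136 to 130 and at 38 to 32 bases, the only AP-1 matches among the 6. Of 32851 promoter windows of the same length, the TATA match was in 12.4%, the CCAAT match in 33.8%, the PU.1 match in 23.3%, the C/EBP match in 36.8% and the AP-1 match in 6.75%. These matches describe letters, not bound factors.

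Of 121405 barcodes, 94917 passed the filters on genes and mitochondrial UMIs (unique molecular identifiers, 1 per counted RNA molecule) and 57896 were assigned to 1 mouse, with 4388604 to 44152768 UMIs per mouse. Cells were sorted by marker genes into 10 gates that use no S100 gene, and 28388 cells fell into 1 gate. These were HSC-like (haematopoietic stem cell, 1011 cells), multipotent progenitor (844), immature myeloid progenitor (360), granulocyte progenitor (9421), monocyte-primed progenitor (1905), monocyte (3517), neutrophil (1734), erythroid (3192), T and NK (678) and basophil (5726) gates. HSC-like cells had Hlf with at least 2 of 7 stem cell genes, granulocyte progenitors 5 or more UMIs of Elane and 2 or more of Ms4a3 without Ltf, Ly6g or Cd177, and monocytes at least 4 of 8 genes such as Csf1r, Ccr2 and F13a1 without Ltf. Neutrophils had at least 3 of 8 genes such as Ltf, Ly6g and Cxcr2 and 1% or more of their UMIs on Ngp, Camp, Lcn2 and Ltf, and erythroid cells had Gata1 and Klf1 with at least 2 of 6 erythroid genes. The unit is CPM, a gene's UMIs per 1000000 UMIs of the gate's cells in 1 mouse. A mouse entered a gate with 10 or more cells. Mpo, which the rules of the following gates do not use, was at 8287 CPM in granulocyte progenitors, 1024 CPM in neutrophils, 405 CPM in HSC-like cells and 66.1 CPM in erythroid cells, while levels of the gates' own markers are set by the rules and check nothing. Fewer cells left out WT vehicle mouse 2 in HSC-like, multipotent, immature myeloid progenitor and T and NK cells, and WT IL1β mice 2 and 4 in HSC-like cells. They also left out WT IL1β mouse 4, Tet2-KO vehicle mouse 2 and Tet2-KO IL1β mouse 1 in immature myeloid progenitors and Tet2-KO vehicle mouse 4 in neutrophils. Tet2 3' UMIs cannot check the knockout, since they lie outside what Cre removes: Tet2 was at 41.6 ± 4.73 CPM in Tet2-KO vehicle and 39.1 ± 7.41 CPM in WT vehicle mice (SD, n = 4 each).

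The calprotectin genes were highest in the neutrophil gate by a wide margin. S100a8 stood at 149614 ± 25678 CPM and S100a9 at 119103 ± 24717 CPM there (SD, n = 15 mice), and every neutrophil held UMIs of both. The granulocyte progenitor gate came next with 4099 ± 1766 CPM of S100a8 and 1704 ± 846 CPM of S100a9 (n = 16), below the neutrophils of every mouse for both genes (higher in 15 of 15 mice, adjusted p = 0.000385). This and the other orders of gates were tested by a two-sided exact sign-flip permutation test over mice on log2(CPM + 1), with Benjamini-Hochberg adjustment over 63 neighbouring pairs. S100a8 in granulocyte progenitors was in turn above the erythroid gate (higher in 14 of 16 mice, adjusted p = 0.00224), while S100a9 was not separated from it by more than the spread between mice (higher in 9 of 16 mice, adjusted p = 0.309). Below that, the S100a8 levels of the erythroid (1794 ± 1641 CPM), monocyte (1504 ± 1096 CPM), basophil (1314 ± 897 CPM), T and NK (1501 ± 2365 CPM) and monocyte-primed (1224 ± 1473 CPM) gates formed an order whose neighbours did not differ beyond their spread (adjusted p = 0.482 to 0.993). The HSC-like (359.6 ± 470.5 CPM), multipotent (319 ± 339.8 CPM) and immature myeloid (725 ± 1446 CPM) gates were lowest on the log scale, with only the step from monocyte-primed to HSC-like cells past the threshold (higher in 10 of 13 mice, adjusted p = 0.0215). For S100a9 no neighbouring pair below the granulocyte progenitors passed (adjusted p = 0.122 to 0.993).

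**Figure D1:**
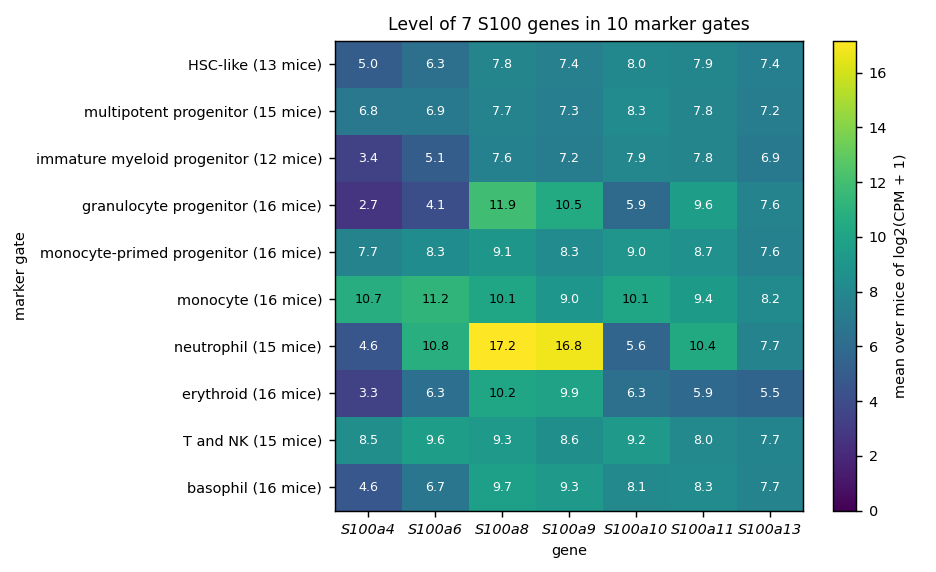
Mean over mice of log2(CPM + 1) for the 7 S100 genes (columns) in the 10 marker gates (rows), with the value printed in each cell and the number of mice beside each gate. S100a8 and S100a9 peak in the neutrophil gate, S100a4 and S100a10 peak in the monocyte gate, S100a6 has its highest means in monocytes and neutrophils, and S100a13 varies least.

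S100a4 and S100a10 were highest in the monocyte gate, and S100a6 in monocytes or neutrophils depending on the group. S100a4 reached 1679 ± 321 CPM in monocytes, 427 ± 252 CPM in T and NK cells and 212 ± 64.7 CPM in monocyte-primed progenitors. It was at 119.9 ± 40.9 CPM in multipotent progenitors and 36.8 ± 18.9 CPM in HSC-like cells. Each of these steps was past the threshold (adjusted p = 0.000385 to 0.00952). S100a4 was lowest in granulocyte progenitors (6.15 ± 4.04 CPM), and from HSC-like cells down to there no neighbouring pair of gates differed beyond its spread (adjusted p = 0.0513 to 0.993). With every cell thinned to 2000 UMIs, S100a4 was found in 27.2% of monocyte-primed progenitors (mean over 16 mice) and in 1.03% of granulocyte progenitors.

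S100a10, the annexin A2 partner, followed the same lineage split at 1142 ± 227 CPM in monocytes, 624 ± 175 CPM in T and NK cells and 509 ± 103 CPM in monocyte-primed progenitors. Stem and early progenitor gates held an intermediate level, 314 ± 61.3 CPM in multipotent, 260.0 ± 53.3 CPM in HSC-like and 248 ± 54.8 CPM in immature myeloid progenitor cells. It was down to 63.5 ± 21.3 CPM in granulocyte progenitors and 61.4 ± 44.3 CPM in neutrophils and these lowest gates did not differ beyond their spread (higher in 8 of 15 mice, adjusted p = 0.462). The steps from immature myeloid progenitors to erythroid cells (higher in 12 of 12 mice, adjusted p = 0.00181) and from erythroid cells to granulocyte progenitors (higher in 14 of 16 mice, adjusted p = 0.00154) were past the threshold.

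S100a6 was at 2409 ± 471 CPM in monocytes and 2319.7 ± 1515 CPM in neutrophils over all mice, which were not told apart (higher in 8 of 15 mice, adjusted p = 0.272). The order differed between groups, since in neutrophils S100a6 was below the monocytes of the same mouse in every vehicle mouse that had both gates and above them in all Tet2-KO IL1β mice and in WT IL1β mice 1, 2 and 4. T and NK cells (827 ± 363 CPM) and monocyte-primed progenitors (335 ± 109.8 CPM) followed, each step past the threshold (adjusted p = 0.000385 to 0.00154, the step from monocyte-primed to multipotent progenitors included). Granulocyte progenitors again had the lowest mean, at 17.5 ± 7.14 CPM. From multipotent progenitors down to there no neighbouring pair of gates differed beyond its spread (sign-flip test, adjusted p = 0.0626 to 0.993). After thinning, 2.33% of granulocyte progenitors and 62.2% of neutrophils held an S100a6 UMI.

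S100a11, the annexin A1 partner, was highest in neutrophils (1383 ± 281 CPM), then granulocyte progenitors (780.1 ± 103 CPM) and monocytes (672 ± 114 CPM), and each of these steps was past the threshold (adjusted p = 0.000385 to 0.014). It was lowest in erythroid cells (63.9 ± 33.4 CPM, higher in 15 of 15 mice, adjusted p = 0.000385 for the step from multipotent progenitors). Reads of S100a11 can be shared with a processed copy of the gene elsewhere in the genome, so its level is uncertain by that amount. S100a13 varied least, from 125 ± 33.4 CPM in immature myeloid progenitors to 300.0 ± 28.8 CPM in monocytes, with only the erythroid gate (46.7 ± 9.68 CPM) clearly below that range.

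Over 150 points, each 1 gate of 1 mouse, S100a8 and S100a9 moved together (Pearson r = 0.97 on log2(CPM + 1)). Less closely so did S100a4 and S100a10 (r = 0.80) and S100a11 and S100a13 (r = 0.74). S100a8 and S100a10 ran in opposite directions (r = -0.53). These r describe points that share libraries, depth and gate rules and carry no p. Among 4767 other genes, the patterns most like S100a8 were those of Lrg1 (r = 0.91), Wfdc21 (0.90) and 4930438A08Rik (0.85). Most like S100a9 were those of Lrg1 (0.88), Wfdc21 (0.87) and Chil1 (0.85). S100a4 was most like Ahnak (0.89), Tmsb10 (0.85) and the lysosomal protease gene Ctss (0.83). S100a10 was most like Tmsb10 (0.89), Crip1 (0.88) and Arhgdia (0.82). For S100a6 they were Actb (0.84), Degs1 (0.84) and Slfn2 (0.83). S100a11 was closest to Arhgdib (0.92), Cyba (0.85) and Prdx5 (0.85), and S100a13 to the actin regulator genes Coro1a (0.91), Myo1f (0.88) and Arpc1b (0.87).

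Free RNA from broken neutrophils can put S100a8 and S100a9 UMIs into cells that do not make them, so the erythroid gate was read as the background of each mouse. Erythroid cells ranged over mice from 77.7 to 6321 CPM (median 1080.1) for S100a8 and from 75.5 to 4189.7 CPM (median 817) for S100a9. The 4 Tet2-KO vehicle mice held 2046, 2199, 151 and 77.7 CPM of S100a8 in erythroid cells, in the order of mouse number, and their basophils held 2330.4, 2409.8, 45.3 and 54.8 CPM. The first pair of these mice shared 1 library and the second pair another, so in this group the background followed the library. WT vehicle mice 1 and 2, which also shared a library, were not alike, with 2157 and 210.2 CPM in basophils.

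**Figure D2:**
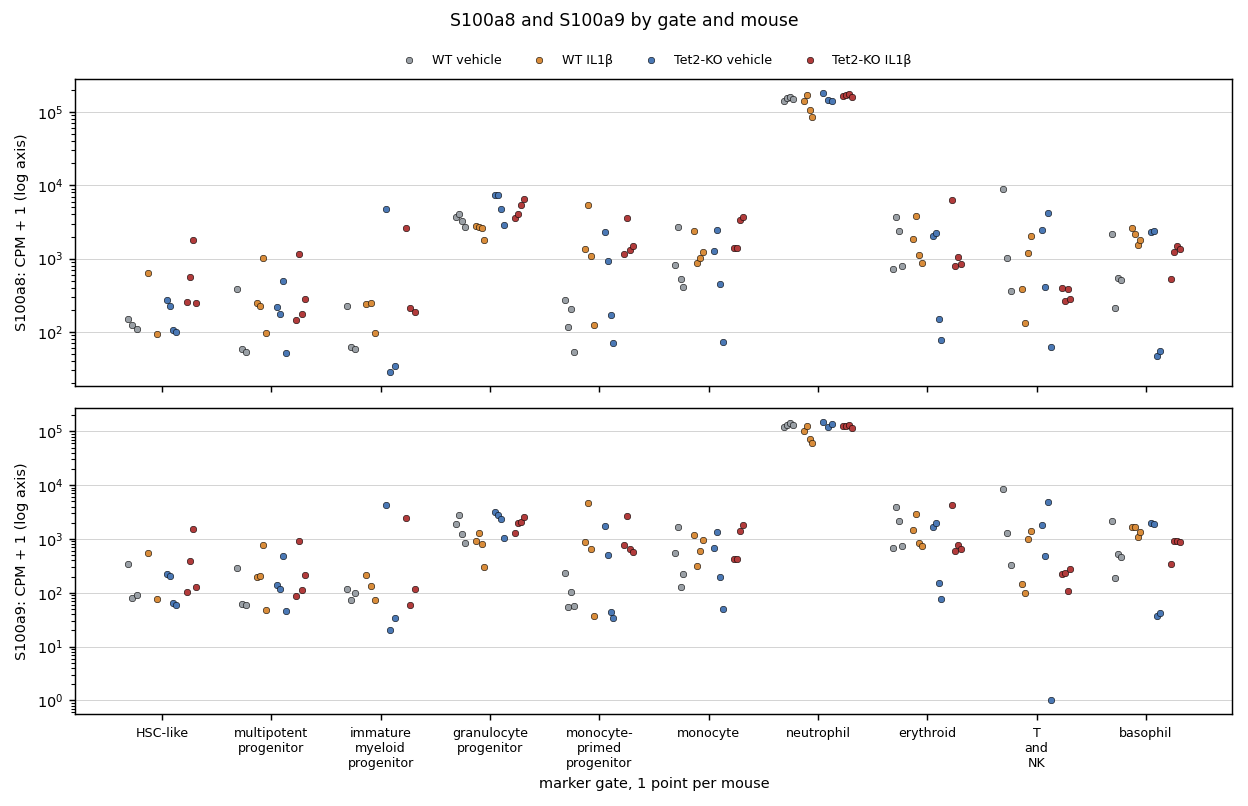
S100a8 (top) and S100a9 (bottom) as CPM + 1 on a log axis, 1 point per mouse, by marker gate and group. The neutrophil gate stands apart from all others, and the erythroid, T and NK and basophil gates, which are not neutrophils, overlap the range of the stem, progenitor and monocyte gates.

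A few cells carried much of this signal in some gates. In the erythroid gate 80 of 3192 cells had 0.2% or more of their UMIs on the neutrophil granule genes Ngp, Camp, Lcn2 and Ltf, and these cells held 66.7% of the gate's S100a8 UMIs and 67.1% of its S100a9 UMIs. Among HSC-like cells 1 of 1011 did, with 24.2% of the S100a8 UMIs, and among monocyte-primed progenitors 16 of 1905 did, with 60.1%. Among immature myeloid progenitors 2 of 360 did, with 30.6% of S100a8 and 31.4% of S100a9. In monocytes 16 of 3517 did, with 13.95% of S100a8 and 21.5% of S100a9, and in granulocyte progenitors 193 of 9421 did, with 20.1% of S100a8 and 37.5% of S100a9. Whether such cells are pairs of cells or took up free RNA was not tested. Without them the pooled S100a8 level was 385 CPM in erythroid cells, 284 in HSC-like cells, 969 in monocytes and 3521 in granulocyte progenitors.

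Shares of cells with a UMI were compared after every cell was thinned to 2000 UMIs. S100a8 was found in 23.5% ± 10.6 of erythroid cells (SD over 16 mice, 65.4% without thinning), in 30.0% ± 12.1 of HSC-like cells (13 mice, 44.4%), in 40.7% ± 17.3 of monocytes and in 61.4% ± 9.04 of granulocyte progenitors. The median depth was 11758.5 UMIs in erythroid, 2749 in HSC-like, 3640 in monocyte and 7478 in granulocyte progenitor cells, and 194 HSC-like, 409 monocyte, 16 granulocyte progenitor and 4 erythroid cells were too shallow to thin. T and NK cells, at a median of 1815 UMIs, held S100a8 in 31.8% ± 18.2 (261 of 676 cells deep enough). The HSC-like share thus lay above the erythroid and below the T and NK share, although its CPM lay below that of both, so no order is read from these shares. Within mice S100a8 was above the erythroid gate in 2 of 13 for HSC-like cells, 8 of 16 for monocytes and 14 of 16 for granulocyte progenitors.

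The ratio of S100a8 to S100a9 UMIs, which depth does not change, set the granulocyte progenitors apart. Summed over mice it was 1.30 in neutrophils, 2.51 in granulocyte progenitors, 2.05 in monocytes, 1.47 in monocyte-primed progenitors, 1.21 in erythroid cells, 1.28 in HSC-like cells and 1.08 in T and NK cells. Granulocyte progenitors were above the neutrophils of their own mouse in 15 of 15 mice, monocytes in 14 of 15 and monocyte-primed progenitors in 13 of 15. Erythroid cells were above in 2 of 15 and HSC-like cells in 7 of 12. With granule-rich cells left out, the ratio was 3.21 in granulocyte progenitors and 2.24 in monocytes. The summed proportions in HSC-like and erythroid cells were thus near those of neutrophils, though single mice ranged from 0.43 to 2.5 in HSC-like cells. S100a8 weighed more in granulocyte progenitors and monocytes.

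The ratio also differed between vehicle and IL1β within neutrophils. It was 1.16, 1.17, 1.12 and 1.14 in the WT vehicle mice and 1.38, 1.36, 1.48 and 1.42 in the WT IL1β mice. The Tet2-KO values were 1.20, 1.22 and 1.04 in 3 vehicle mice and 1.33, 1.35, 1.36 and 1.38 in the IL1β mice. Every IL1β mouse was above every vehicle mouse in both genotypes, with means of 1.41 ± 0.0524 against 1.15 ± 0.0229 in WT and 1.35 ± 0.0223 against 1.15 ± 0.0992 in Tet2-KO (SD). The two-sided exact permutation test gave p = 0.0286 in each, the smallest these group sizes allow, and adjusted p = 0.163. The adjustment is over 40 ratio tests, 10 gates by 4 comparisons, which were chosen after the ratios were seen. The same separation was seen in the erythroid gate (1.27 ± 0.0748 against 1.05 ± 0.0683 in WT, 1.36 ± 0.0971 against 1.08 ± 0.101 in Tet2-KO). It was also seen in the basophil gate (1.41 ± 0.101 against 1.06 ± 0.0489 and 1.52 ± 0.133 against 1.27 ± 0.0624), each with the same exact permutation p of 0.0286. T and NK cells showed it in WT (1.64 ± 0.661 against 0.97 ± 0.173, exact permutation p = 0.0857). There WT IL1β mice 1 and 2 had only 21 and 4 UMIs of S100a8 and 8 and 3 of S100a9. Between genotypes the separation was seen in basophils with vehicle, where Tet2-KO mice were all above WT mice (1.27 ± 0.0624 against 1.06 ± 0.0489, exact permutation p = 0.0286). Counts were low in WT vehicle mouse 2 (29 S100a8 and 26 S100a9 UMIs) and Tet2-KO vehicle mice 3 (50 and 39) and 4 (70 and 53). Granulocyte progenitors had no such separation (3.53 ± 1.64 against 2.30 ± 0.715, exact permutation p = 0.2, in WT and 2.50 ± 0.287 against 2.45 ± 0.332, p = 0.83, in Tet2-KO). Mice of 1 library share their free RNA, so the erythroid and basophil values are not independent of the neutrophil ones.

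**Figure D3:**
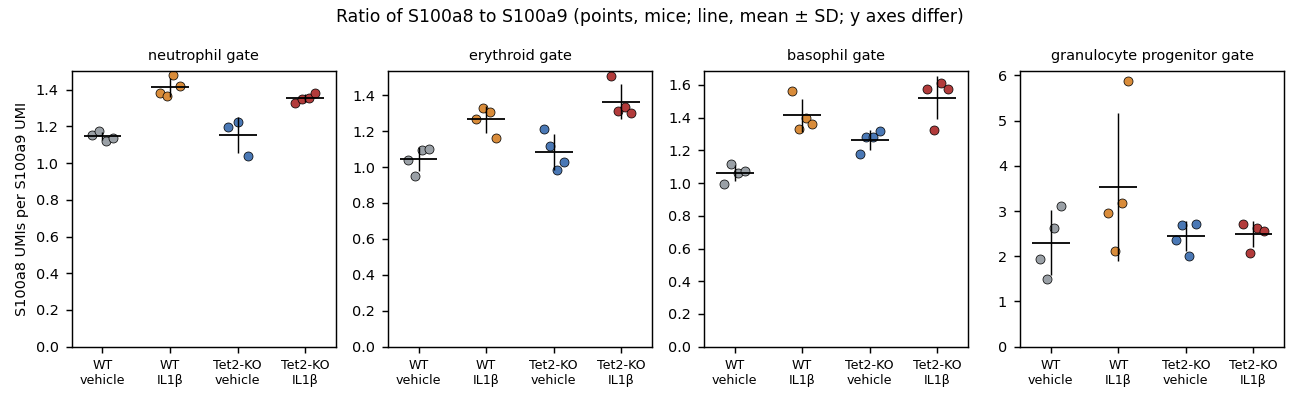
UMIs of S100a8 per UMI of S100a9 in the neutrophil, erythroid, basophil and granulocyte progenitor gates by group (points, mice; line and bar, mean ± SD). In the first 3 gates each IL1β mouse lies above each vehicle mouse of its genotype, and in granulocyte progenitors the groups overlap.

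The effect of 5 weeks of IL1β was tested in 6 gates by edgeR's quasi-likelihood test on UMIs summed per mouse. P-values were adjusted by Benjamini-Hochberg over all genes tested in a gate, with a call at an adjusted p under 0.05. In neutrophils 2 of 7 members were called in WT (1 higher and 1 lower with IL1β), where 2.7% of all genes were, and 3 of 7 in Tet2-KO (1 higher and 2 lower), where 4.79% were. S100a6 was the one that rose in both genotypes. Its level was 753, 678, 777 and 1238 CPM in WT vehicle mice and 2806, 3491, 1808 and 1985 CPM in WT IL1β mice. In Tet2-KO it was 2097, 1570.5 and 390.5 CPM with vehicle (mice 1 to 3) and 3587, 4085, 4297 and 5234 CPM with IL1β. The vehicle and IL1β mice did not overlap in either genotype, and the Tet2-KO IL1β mice were all above the WT IL1β mice.

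S100a6 rose in WT (log2 fold change 1.36 ± 0.33 (SE), edgeR adjusted p = 0.0254) and in Tet2-KO (log2 fold change 1.61 ± 0.36 (SE), edgeR adjusted p = 0.0138). The WT call was lost with WT vehicle mice 1, 2 and 3 and WT IL1β mice 1 and 2 left out in turn (adjusted p = 0.0515 to 0.0863), and the Tet2-KO call with Tet2-KO vehicle mice 2 and 3 left out in turn (adjusted p = 0.059 to 0.0597). In WT it was also lost with libraries as replicates and under stricter gates (adjusted p = 0.0506 to 0.34), and in Tet2-KO with libraries as replicates (adjusted p = 0.0545). The difference between genotypes under IL1β missed the threshold (log2 fold change 0.93 ± 0.32 (SE), edgeR adjusted p = 0.0908, 95% interval 0.31 to 1.55).

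S100a9 fell in WT neutrophils and S100a8 did not pass. S100a9 was at 121548, 131561, 143443 and 133313 CPM in WT vehicle mice and at 101077, 123125, 72246 and 59919 CPM in WT IL1β mice. IL1β mouse 2 lay within the vehicle range (log2 fold change -0.78 ± 0.20 (SE), edgeR adjusted p = 0.0394). S100a8 was at 140488, 154504, 160875 and 151563 CPM with vehicle and 139635, 167923, 107059 and 85209.6 CPM with IL1β (log2 fold change -0.49 ± 0.20 (SE), edgeR adjusted p = 0.176). The S100a9 call was lost with WT vehicle mice 1, 2, 3 and 4 and WT IL1β mice 3 and 4 left out in turn (adjusted p = 0.0731 to 0.135), and with libraries as replicates and under stricter gates (adjusted p = 0.0546 to 0.196). S100a8 was called (-0.75, adjusted p = 0.0156) without WT IL1β mouse 2. In Tet2-KO neutrophils S100a8 (log2 fold change 0.08 ± 0.21 (SE), edgeR adjusted p = 0.884) and S100a9 (log2 fold change -0.15 ± 0.22 (SE), edgeR adjusted p = 0.747) were not called.

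Granule genes moved with these WT results, although Ngp, Camp, Lcn2, Ltf and Retnlg also serve as markers of the neutrophil gate. Of 10 granule genes tested in neutrophils, Camp (log2 fold change -1.16 ± 0.19, adjusted p = 0.00232), Lcn2 (log2 fold change -0.84 ± 0.19, adjusted p = 0.0182) and Lyz2 (log2 fold change -0.85 ± 0.20, adjusted p = 0.0243) fell. Mpo, a gene of earlier granulocyte stages, rose (log2 fold change 1.11 ± 0.27, adjusted p = 0.0271) in WT. Their summed level was 99182 to 110156 CPM in WT vehicle and 58045 to 89776 CPM in WT IL1β mice, which did not overlap. In Tet2-KO it was 73467 to 95372 CPM with vehicle and 84861 to 92067 CPM with IL1β. In Tet2-KO only Retnlg of the 10 was called (log2 fold change 1.86 ± 0.46, adjusted p = 0.022), higher with IL1β. The share of all genes called was 2.7% in WT and 4.79% in Tet2-KO. The part of these genes in the S100 results was not tested. Leaving out scaling factors moved the median of all genes by 0.21 (log2) in WT neutrophils, and changes here are relative to the scaled median.

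S100a4 and S100a10, the members typical of monocytes, fell in Tet2-KO neutrophils. Monocytes held 1679 and 1142 CPM of them (means over 16 mice), and the part of free monocyte RNA in the neutrophil values was not tested. S100a10 was at 60.2, 84.0 and 177 CPM with vehicle (mice 1 to 3) and 20.4, 26.8, 6.85 and 41.7 CPM with IL1β, without overlap (log2 fold change -1.97 ± 0.41 (SE), edgeR adjusted p = 0.0103). S100a4 was at 38.8, 104 and 130.2 CPM with vehicle and 7.66, 8.94, 1.37 and 30.5 CPM with IL1β, again without overlap (log2 fold change -2.69 ± 0.61 (SE), edgeR adjusted p = 0.015). It rested on 38, 21 and 28 UMIs in the vehicle and 3, 11, 1 and 19 in the IL1β mice. S100a10 was also sparse, with a UMI in 14.9% of neutrophils before thinning (mean over 15 mice of all groups). The S100a10 call was lost with Tet2-KO vehicle mouse 3 left out (adjusted p = 0.078), and the S100a4 call with Tet2-KO vehicle mice 2 and 3 left out in turn (adjusted p = 0.0637 to 0.0819) and under stricter gates (adjusted p = 0.0955). DESeq2 gave no adjusted p for that S100a4 change. In WT neither was called, with S100a10 at -0.67 and S100a4 at -1.10 (log2, adjusted p = 0.348 and 0.325).

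**Figure D4:**
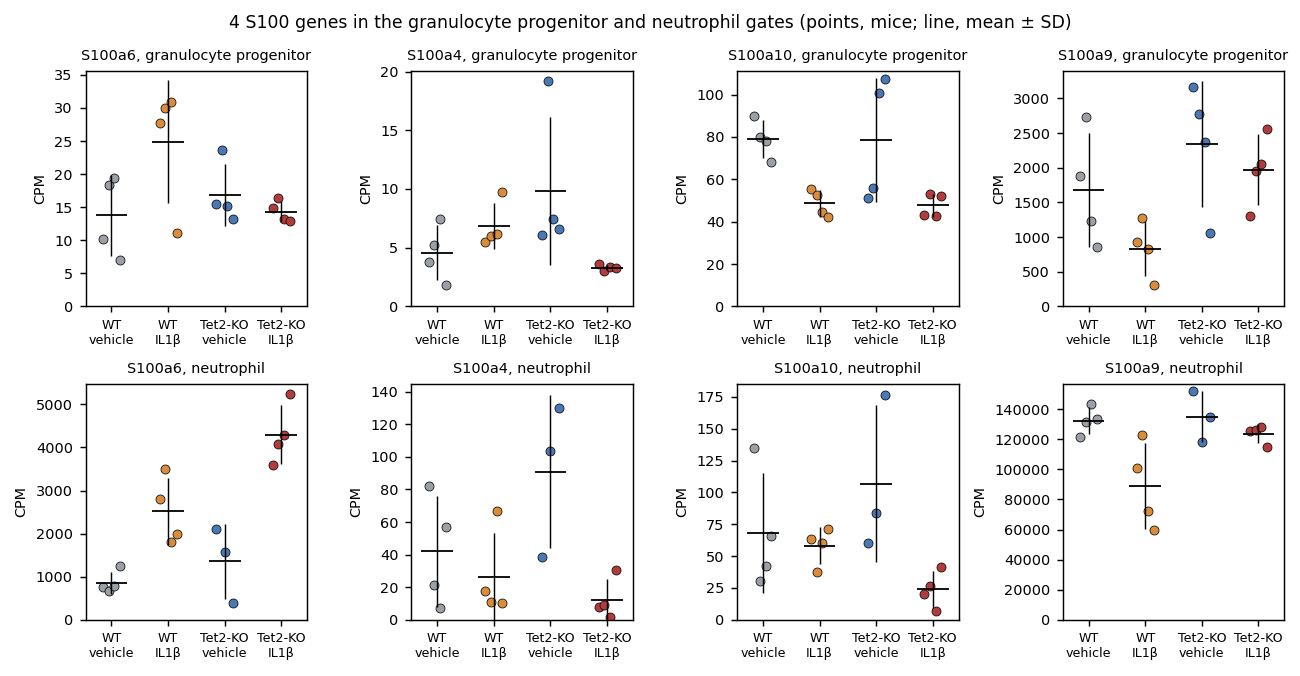
CPM of S100a6, S100a4, S100a10 and S100a9 in the granulocyte progenitor gate (top) and neutrophil gate (bottom) by group (points, mice; line and bar, mean ± SD; axes start at 0). S100a6 is higher with IL1β in neutrophils of both genotypes, and S100a10 is lower with IL1β in granulocyte progenitors of both.

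In granulocyte progenitors 5 of 7 members were called with IL1β in WT (1 higher, 4 lower), beside 24.7% of all genes, and 2 of 7 in Tet2-KO (both lower), beside 35.2%. S100a10 fell in both genotypes. It was at 89.7, 80.1, 77.9 and 68.1 CPM in WT vehicle mice and 55.5, 52.4, 44.6 and 42.2 CPM in WT IL1β mice, without overlap (log2 fold change -0.85 ± 0.20 (SE), edgeR adjusted p = 0.0044). Tet2-KO vehicle mice held 51.3, 55.8, 101 and 107 CPM and Tet2-KO IL1β mice 43.0, 52.9, 42.8 and 51.9 CPM (log2 fold change -0.87 ± 0.19 (SE), edgeR adjusted p = 0.00138). The lower 2 Tet2-KO vehicle mice shared a library, and the lowest lay inside the IL1β range. Leaving out any 1 mouse kept both calls (log2 fold changes -1.04 to -0.70 in Tet2-KO). With libraries in place of mice as replicates, which also took in barcodes without a hashtag call, the Tet2-KO call stayed and the WT one missed (adjusted p = 0.0649).

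S100a4, already at its lowest in this gate, fell with IL1β in Tet2-KO, from 6.09, 19.2, 7.45 and 6.60 CPM to 3.62, 2.99, 3.32 and 3.31 CPM, without overlap (log2 fold change -1.65 ± 0.33 (SE), edgeR adjusted p = 0.000732). Mouse 2 of the vehicle group stood far above the other 3, and without it the change was -1.16 (adjusted p = 0.00416). In WT its log2 fold change was 0.30 ± 0.40 (adjusted p = 0.633). The interaction of genotype and IL1β, which tests that contrast of the genotypes, was not past the threshold. Monocytes held 1679 CPM of S100a4 (mean over 16 mice), and the part of free monocyte RNA in these low values was not tested.

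S100a6 rose in WT granulocyte progenitors, from 10.2, 18.4, 19.4 and 7.02 CPM to 27.7, 30.0, 30.9 and 11.04 CPM, with IL1β mouse 4 inside the vehicle range (log2 fold change 0.86 ± 0.27 (SE), edgeR adjusted p = 0.0231). That call was lost with WT vehicle mice 1 and 4 and WT IL1β mice 2 and 3 left out in turn (adjusted p = 0.0543 to 0.134). It was also lost under stricter gates (adjusted p = 0.0605). In Tet2-KO the S100a6 change was -0.39 ± 0.24 (SE, edgeR adjusted p = 0.225), and the interaction was not past the threshold (edgeR adjusted p = 0.932). S100a11 fell in WT from 718, 837, 888 and 881 CPM to 641, 724, 710.3 and 582 CPM (log2 fold change -0.51 ± 0.11 (SE), edgeR adjusted p = 0.00217), where only IL1β mouse 2 reached the lowest vehicle mouse, and the call was lost with libraries as replicates (adjusted p = 0.0639). In Tet2-KO the S100a11 change was -0.02 ± 0.11 (adjusted p = 0.903).

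The calprotectin genes fell with IL1β in WT granulocyte progenitors. S100a8 was at 3677, 4099, 3239 and 2667 CPM with vehicle and 2741, 2670.4, 2600.2 and 1788 CPM with IL1β. Only vehicle mouse 4 overlapped (log2 fold change -0.67 ± 0.24 (SE), edgeR adjusted p = 0.0425). S100a9 was at 1887, 2730.1, 1235 and 855 CPM with vehicle and 928, 1268, 821 and 304 CPM with IL1β, and IL1β mice 1 and 2 lay inside the vehicle range (log2 fold change -1.18 ± 0.37 (SE), edgeR adjusted p = 0.023). The S100a8 call was lost with WT vehicle mice 1, 2 and 3 and WT IL1β mice 2, 3 and 4 left out in turn (adjusted p = 0.052 to 0.127) and by DESeq2, without scaling factors, with libraries as replicates, under relaxed gates and with granule-rich cells left out (adjusted p = 0.0732 to 0.247). The S100a9 call was lost with WT vehicle mice 1 and 2 and WT IL1β mice 3 and 4 left out in turn (adjusted p = 0.0586 to 0.111) and with libraries as replicates and with granule-rich cells left out (adjusted p = 0.0551 to 0.127), and with granule-rich cells left out its log2 fold change was -0.59. Neither changed past the threshold in Tet2-KO (S100a8 -0.35 and S100a9 -0.39 on the log2 scale, adjusted p = 0.265 and 0.426).

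Of 9 granule genes tested in this gate, for which Elane is also a marker, Elane (log2 fold change -0.56 ± 0.08, adjusted p = 0.000205), Prtn3 (log2 fold change -0.61 ± 0.14, adjusted p = 0.00379) and Mpo (log2 fold change -0.23 ± 0.07, adjusted p = 0.019) fell in WT. Lcn2 (log2 fold change 1.70 ± 0.38, adjusted p = 0.00315) and Retnlg (log2 fold change 1.43 ± 0.49, adjusted p = 0.0362) rose. In Tet2-KO also 3 fell, Elane (log2 fold change -0.38 ± 0.08, adjusted p = 0.00171), Prtn3 (log2 fold change -0.50 ± 0.14, adjusted p = 0.00948) and Lyz2 (log2 fold change -0.76 ± 0.17, adjusted p = 0.00161), and 2 rose, Lcn2 (log2 fold change 1.30 ± 0.34, adjusted p = 0.00523) and Chil3 (log2 fold change 1.26 ± 0.41, adjusted p = 0.0215). Of all genes tested in this gate 24.7% were called in WT and 35.2% in Tet2-KO. The 10 granule genes summed to 25573 to 28171 CPM in WT vehicle, 21366 to 22392 CPM in WT IL1β mice. In Tet2-KO they summed to 26214 to 29874 CPM with vehicle and 22954 to 27354 CPM with IL1β, with Ltf at 0 because the gate requires it. WT IL1β mice thus had the lowest sums, and the part of these genes in the S100a8 and S100a9 results was not tested.

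**Figure D5:**
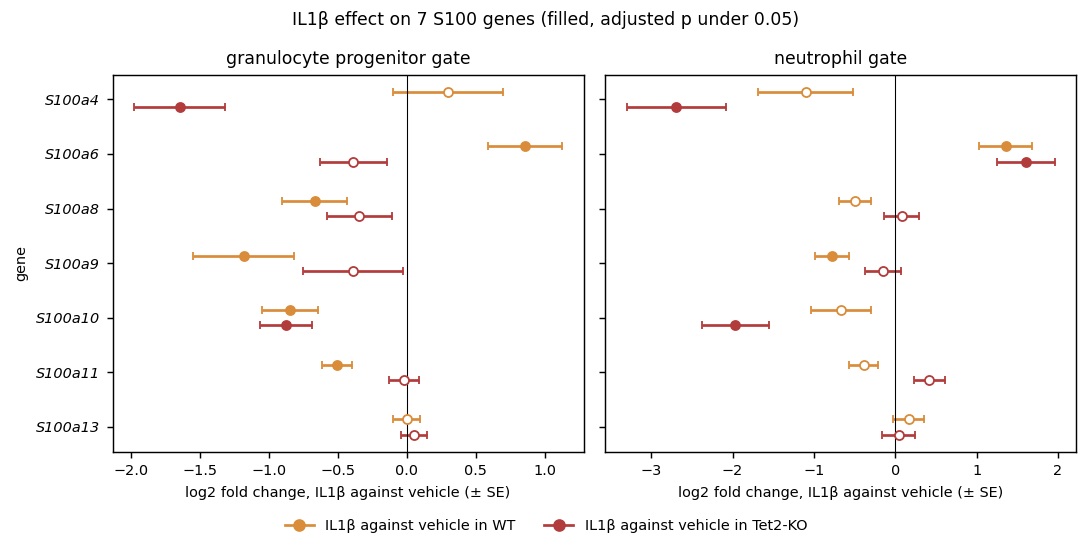
Log2 fold change of IL1β against vehicle for the 7 S100 genes in the granulocyte progenitor (left) and neutrophil (right) gates, in WT and Tet2-KO (points, edgeR estimate; bars, ± SE; filled points, adjusted p under 0.05; x axes differ). S100a10 is lower in granulocyte progenitors of both genotypes and S100a6 higher in neutrophils of both.

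In monocytes none of the 7 members was called with IL1β by edgeR's test, in WT (4.43% of all genes called) or in Tet2-KO (3.59%). DESeq2 called none either, but without the filter on low counts edgeR called S100a8 and S100a9 in Tet2-KO. At an unadjusted p under 0.05 in the main fits stood 1 of 7 in WT and 1 of 7 in Tet2-KO. Both were S100a10, with log2 fold changes of -0.42 ± 0.17 and -0.38 ± 0.17 (adjusted p = 0.16 and 0.215). S100a4, highest in this gate, was at 1408, 1432, 1978 and 1748 CPM in WT vehicle and 1758, 1729.5, 1352 and 914 CPM in WT IL1β mice. In Tet2-KO it was at 1992, 1733, 1744 and 1836 CPM with vehicle and 1434, 2232, 1569.6 and 2002 CPM with IL1β, and all groups overlapped. S100a6 lay between 1572 and 3332 CPM over the 16 mice.

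S100a8 in monocytes varied widely between mice of 1 group, at 809, 2665, 521 and 413 CPM in WT vehicle and 2383, 882, 1025 and 1214 CPM in WT IL1β mice. In Tet2-KO it was at 1287, 2435, 456 and 71.5 CPM with vehicle and 1406, 1377, 3395 and 3715 CPM with IL1β. The IL1β difference missed the threshold for S100a8 in Tet2-KO (log2 fold change 1.22 ± 0.63 (SE), edgeR adjusted p = 0.281) and in WT (log2 fold change 0.37 ± 0.63 (SE), edgeR adjusted p = 0.797). It also did for S100a9 in Tet2-KO (log2 fold change 0.88 ± 0.70 (SE), edgeR adjusted p = 0.519) and in WT (log2 fold change 0.39 ± 0.72 (SE), edgeR adjusted p = 0.812). Relative to the erythroid gate of the same mouse, none of 40 tests over S100a8, S100a9, 5 gates and 4 comparisons passed (two-sided exact permutation test, smallest p = 0.1, smallest adjusted p = 0.894). Groups of 4 mice cannot give a p under 0.0286, so a pass after adjustment over 40 tests was hardly within reach. Without Tet2-KO IL1β mouse 1, 4 tests reached that p (smallest adjusted p = 0.286), all for Tet2-KO against WT with IL1β, with differences of 1.34 to 2.49 (log2) for S100a8 and S100a9 in neutrophils and granulocyte progenitors. With the T and NK gate as the background 2 did (smallest adjusted p = 0.571), S100a8 and S100a9 in neutrophils for IL1β in Tet2-KO, at 2.40 and 2.91 (log2). With granule-rich cells left out and the erythroid gate as the background, none of 32 tests passed (exact permutation test, smallest p = 0.0571, smallest adjusted p = 0.499). In Tet2-KO monocytes the granule genes Chil3 (log2 fold change 2.23 ± 0.44, adjusted p = 0.011) and Lcn2 (log2 fold change 1.95 ± 0.47, adjusted p = 0.0252) rose, 2 of 9 tested, beside 3.59% of all genes called.

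In the HSC-like gate S100a8 and S100a9 were the only 2 of 7 members called with IL1β in Tet2-KO, beside 6.72% of all genes. None was called in WT (2.08%), where 2 stood at an unadjusted p under 0.05 and DESeq2 called none. That count in WT depended on the processing, with 2 called without the filter on low counts and 3 under relaxed gates, where S100a8 was at 3.67 (log2, edgeR adjusted p = 0.0017). S100a8 was at 272, 225, 104 and 98.5 CPM in the Tet2-KO vehicle mice and 255, 556, 1819 and 247 CPM in the Tet2-KO IL1β mice, overlapping through vehicle mouse 1 (log2 fold change 2.12 ± 0.50 (SE), edgeR adjusted p = 0.0102). S100a9 was at 220.3, 205, 64.8 and 57.5 CPM with vehicle and 102, 386, 1519 and 125 CPM with IL1β, where IL1β mice 1 and 4 lay inside the vehicle range (log2 fold change 2.14 ± 0.63 (SE), edgeR adjusted p = 0.0382). In WT S100a8 was at 148, 122 and 109 CPM in 3 vehicle mice and 625 and 91.9 CPM in 2 IL1β mice (log2 fold change 1.53 ± 0.63 (SE), edgeR adjusted p = 0.248). S100a9 did not pass either (log2 fold change 1.21 ± 0.78 (SE), edgeR adjusted p = 0.492). S100a8 in HSC-like cells exceeded the erythroid background of the same mouse in 2 of 13 mice, and S100a9 in 1 of 13. That background includes the granule-rich erythroid cells, which held most of its S100a8 and S100a9 UMIs. It is therefore not shown to be free RNA alone.

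Both HSC-like calls depended on few cells. IL1β mouse 3 stood far above the rest, and without it the changes were 1.14 for S100a8 (adjusted p = 0.0981) and 0.91 for S100a9 (adjusted p = 0.35). The S100a8 call was lost with Tet2-KO vehicle mice 3 and 4 and Tet2-KO IL1β mouse 3 left out in turn (adjusted p = 0.059 to 0.0981), and the S100a9 call with Tet2-KO vehicle mice 2, 3 and 4 and Tet2-KO IL1β mouse 3 left out in turn (adjusted p = 0.0502 to 0.35). DESeq2 called neither (adjusted p = 0.0818 and 0.213). With the single granule-rich cell left out they were 1.08 (adjusted p = 0.0695) and 0.84 (adjusted p = 0.322). Under stricter gates they turned negative, at -0.81 and -0.67. With the erythroid background of the library subtracted, neither gene gave a fold change in this gate, which decides nothing. The amount was taken per cell without scaling to depth, at a median of 11758.5 UMIs in erythroid and 2749 in HSC-like cells. Relative to the erythroid gate of the same mouse the Tet2-KO change of S100a8 was 0.07 on the log2 scale (two-sided exact permutation p = 0.971), and that of S100a9 was 0.11 (p = 0.943). These values rest on Tet2-KO IL1β mouse 1, whose erythroid gate held 23 cells at 6321 CPM of S100a8. Without it they were 1.11 (exact permutation p = 0.371) for S100a8 and 1.28 (exact permutation p = 0.314) for S100a9, and with the T and NK gate as the background 2.78 (exact permutation p = 0.114) and 1.73 (exact permutation p = 0.6).

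The neutrophil gene Retnlg was also called higher with IL1β in Tet2-KO HSC-like cells (log2 fold change 5.22 ± 1.04, adjusted p = 0.00276), as 1 of 6 granule genes tested, beside 6.72% of all genes called. The median log2 fold change of those 6 was 0.05. Ngp, Camp, Lcn2 and Ltf summed to 11.3 to 96.1 CPM in Tet2-KO vehicle and 57.6 to 217 CPM in Tet2-KO IL1β mice. Their part in the S100a8 and S100a9 result was not tested. The other 5 members gave no call in HSC-like cells. S100a10 was at 208, 287, 372 and 304 CPM with vehicle and 281, 234, 196 and 234 CPM with IL1β in Tet2-KO (log2 fold change -0.42 ± 0.18 (SE), edgeR adjusted p = 0.175). It was at 306, 278 and 282 CPM in 3 vehicle and 203 and 195 CPM in 2 IL1β mice in WT (log2 fold change -0.61 ± 0.24 (SE), edgeR adjusted p = 0.221). S100a6 was nearest to a call among them, in Tet2-KO (log2 fold change 1.02 ± 0.36 (SE), edgeR adjusted p = 0.0802).

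Immature myeloid progenitors, with 360 cells, tested 6 members, since S100a4 was too low, and called none with IL1β in WT (4.47% of all genes called) or Tet2-KO (3.27%). By edgeR 0 and 0 of the 6 had an unadjusted p under 0.05, and DESeq2 called none. In Tet2-KO the count depended on single mice, since leaving some out gave calls, as listed at the end. S100a8 there was at 4722, 27.7 and 33.2 CPM in Tet2-KO vehicle mice 1, 3 and 4 and 2593, 214 and 189 CPM in Tet2-KO IL1β mice 2, 3 and 4. A single mouse of each group was more than 10-fold above the others. In Tet2-KO IL1β mouse 2 the level was that of 1 granule-rich cell, since leaving out that 1 of its 26 cells took S100a8 from 349 to 21 UMIs.

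The erythroid gate, used as the background, called 1 of 7 members with IL1β in WT (14.4% of all genes) and none in Tet2-KO (11.7%), where 1 of 7 had an unadjusted p under 0.05 and DESeq2 called none. The member was S100a10, at 84.6, 72.3, 131 and 107 CPM with vehicle and 71.7, 89.3, 53.3 and 55.5 CPM with IL1β (log2 fold change -0.72 ± 0.22 (SE), edgeR adjusted p = 0.0339). The call was lost with WT vehicle mice 1, 3 and 4 and WT IL1β mice 3 and 4 left out in turn (adjusted p = 0.0524 to 0.16) and by DESeq2, without scaling factors, with a replicate block, with libraries as replicates and without the cells in the top 5% of UMIs (adjusted p = 0.0648 to 0.0876). In Tet2-KO it missed the threshold (log2 fold change -0.64 ± 0.21 (SE), edgeR adjusted p = 0.0572). S100a10 was thus called lower with IL1β in 4 of 12 pairs of gate and genotype, and with the scaling factors used its log2 fold change in the other 8 lay between -0.67 and -0.17. In those 4 the share of all genes called was 24.7% (WT) and 35.2% (Tet2-KO) in granulocyte progenitors. It was 4.79% in Tet2-KO neutrophils and 14.4% in WT erythroid cells. The erythroid changes of S100a8 were -0.10 ± 0.82 in WT and 0.91 ± 0.83 in Tet2-KO, and of S100a9 -0.45 ± 0.80 and 0.57 ± 0.80 (adjusted p = 0.524 to 0.969 over the 4). Of the 10 granule genes, all tested here, Elane (log2 fold change 0.93 ± 0.29, adjusted p = 0.0328) and Mpo (log2 fold change 1.14 ± 0.25, adjusted p = 0.00385) rose with IL1β in WT and none was called in Tet2-KO, so 2 myeloid genes moved in the gate used as the background. Ngp, Camp, Lcn2 and Ltf summed to 187 to 1544 CPM in WT vehicle and 270.1 to 1239 CPM in WT IL1β erythroid cells, which overlapped.

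Between genotypes few S100 changes passed in the main fits. Without the filter on low counts more were called, with vehicle and with IL1β, as listed at the end. With vehicle, edgeR called none of 41 pairs of member and gate, with 5 at an unadjusted p under 0.05, and DESeq2 called 0. The share of all genes called was 0% in HSC-like cells, immature myeloid progenitors and neutrophils, 0.0696% in granulocyte progenitors, 0.0243% in monocytes and 0.0324% in erythroid cells. With IL1β, edgeR called 1 of 41, with 13 at an unadjusted p under 0.05, and DESeq2 5. The shares of all genes were then 2.23% in neutrophils, 0.139% in granulocyte progenitors, 0.0121% in monocytes and 0% in the other 3 gates.

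The called member was S100a11 in neutrophils. It was at 1246, 1385, 1051 and 952 CPM in WT IL1β and 1699, 1754, 1843 and 1726 CPM in Tet2-KO IL1β mice, without overlap (log2 fold change 0.77 ± 0.17 (SE), edgeR adjusted p = 0.0278). The WT and Tet2-KO vehicle mice lay at 1224, 1153, 1494 and 1372 CPM and 1526, 1229.7 and 1083 CPM. That call was lost with WT IL1β mice 1, 3 and 4 and Tet2-KO IL1β mouse 3 left out in turn (adjusted p = 0.0531 to 0.128), and with libraries as replicates (adjusted p = 0.134). In the same comparison the granule genes Lcn2 (log2 fold change 0.76 ± 0.19, adjusted p = 0.0361) and Ltf (log2 fold change 0.69 ± 0.17, adjusted p = 0.0361) rose, 2 of 10 tested. S100a8 and S100a9 in these neutrophils were 0.60 ± 0.20 and 0.64 ± 0.20 higher in Tet2-KO on the log2 scale (adjusted p = 0.084 and 0.0732), short of the threshold by edgeR and past it by DESeq2 (adjusted p = 0.0411 and 0.0326). In HSC-like cells, monocytes and erythroid cells with IL1β, the S100a8 and S100a9 differences lay between 0.04 and 1.00 (adjusted p = 0.854 to 1). With vehicle, in those gates and neutrophils, they lay between -0.98 and 0.41 (adjusted p = 1 to 1). The largest were in immature myeloid progenitors, at 3.67 ± 1.22 for S100a8 and 3.88 ± 1.29 for S100a9 with vehicle, and 2.61 ± 1.17 and 2.88 ± 1.23 with IL1β. Their unadjusted p was 0.00637 and 0.00628, then 0.0349 and 0.0278, and by edgeR's main fit no adjusted p was under 0.782. With the mouse number as a replicate block, a member was called in immature myeloid progenitors with IL1β, as given at the end. The vehicle values rest on Tet2-KO vehicle mouse 1, without which they were -1.96 and -1.82. The IL1β values rest on the 1 granule-rich cell of Tet2-KO IL1β mouse 2, without which they were 0.02 and 0.02.

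S100a8 in granulocyte progenitors came closest among the rest, at 2741, 2670.4, 2600.2 and 1788 CPM in WT IL1β and 3561, 4065, 5394 and 6539 CPM in Tet2-KO IL1β mice (log2 fold change 1.08 ± 0.24 (SE), edgeR adjusted p = 0.0578). These mice did not overlap, and the same genotype difference with vehicle was 0.75 ± 0.24 (adjusted p = 0.616). Whether the IL1β effect differed between genotypes was tested as an interaction for the same 41 pairs. None was called by edgeR or by DESeq2 (0% of all genes in each of the 6 gates), with 7 at an unadjusted p under 0.05 and a smallest adjusted p of 0.527. A call in 1 genotype and not in the other is therefore not shown to be a difference between them.

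Partners and receptors of the S100 proteins were counted in the same fits. Of 8 annexins tested in granulocyte progenitors, Anxa2, the partner of S100a10, rose with IL1β in both genotypes while S100a10 fell. Anxa2 was at 31.7, 26.3, 38.2 and 32.4 CPM in WT vehicle and 58.9, 59.8, 80.8 and 29.9 CPM in WT IL1β mice (log2 fold change 0.66 ± 0.22, adjusted p = 0.0306). The Tet2-KO mice held 30.7, 33.2, 42.6 and 34.1 CPM with vehicle and 71.0, 41.9, 69.7 and 72.2 CPM with IL1β (log2 fold change 0.71 ± 0.20, adjusted p = 0.00921). A single IL1β mouse of each genotype, WT mouse 4 and Tet2-KO mouse 2, lay within the vehicle range. Anxa7 (log2 fold change 0.32 ± 0.11, adjusted p = 0.0323) and Anxa11 (log2 fold change 0.63 ± 0.18, adjusted p = 0.0101) also rose in Tet2-KO, making 3 of 8 there (35.2% of all genes called) and 1 of 8 in WT (24.7%), so neither count says anything particular about annexins.

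Anxa1, the partner of S100a11, was higher in Tet2-KO than in WT granulocyte progenitors with vehicle (log2 fold change 0.92 ± 0.12, adjusted p = 0.000893) and with IL1β (log2 fold change 0.98 ± 0.12, adjusted p = 0.000169). So it was in neutrophils with IL1β (log2 fold change 0.71 ± 0.18, adjusted p = 0.0361, 1 of 6 annexins tested), the comparison in which S100a11 was called. Anxa1 in granulocyte progenitors was at 113, 112, 117 and 130.1 CPM in WT vehicle and 163, 137, 174 and 143 CPM in WT IL1β mice. In Tet2-KO it was at 215, 215, 216 and 228 CPM with vehicle and 242, 242, 340.4 and 327 CPM with IL1β. Every Tet2-KO mouse was above every WT mouse of the same treatment. In HSC-like cells Anxa5 rose with IL1β in Tet2-KO (log2 fold change 0.77 ± 0.21, adjusted p = 0.026), as 1 of 7 annexins tested.

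The list of candidate receptors and adaptors for extracellular S100a8 and S100a9 held Ager, Tlr4, Ly96, Cd14, Myd88, Cd36, Bsg and Cd33. Of these Cd33, a receptor of myeloid cells, rose with IL1β in Tet2-KO monocytes (log2 fold change 2.01 ± 0.40, adjusted p = 0.011, 1 of 5 tested, beside 3.59% of all genes called) and in Tet2-KO neutrophils (log2 fold change 1.19 ± 0.25, adjusted p = 0.00912, 1 of 3 tested, beside 4.79%). It was also higher in Tet2-KO than in WT neutrophils with IL1β (log2 fold change 0.75 ± 0.20, adjusted p = 0.0494). Bsg, which encodes basigin, fell with IL1β in Tet2-KO HSC-like cells (log2 fold change -0.68 ± 0.21, adjusted p = 0.0434, the only one of the list tested there) and in Tet2-KO granulocyte progenitors (log2 fold change -0.43 ± 0.11, adjusted p = 0.00466, 1 of 4 tested, beside 35.2% of all genes called). No receptor was called with IL1β in WT. Of the 11 other genes with an S100 symbol 2 were high enough to test in granulocyte progenitors, where S100a1 fell in WT (log2 fold change -0.35 ± 0.11, adjusted p = 0.0256) and S100pbp, which encodes a binding partner rather than an S100 protein, rose in Tet2-KO (log2 fold change 0.69 ± 0.20, adjusted p = 0.01). Of all genes in that gate 24.7% were called in WT and 35.2% in Tet2-KO.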

How the data were processed

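RNA counts per gene and cell were deposited by the authors, who per the labels used Cell Ranger 3.1.0 and Seurat 3.2.3 on mm10, with hashtag counts per barcode. Barcodes with at least 750 genes and at most 10% mitochondrial UMIs were kept, and mice were told apart with Seurat 5.3.0 (HTODemux). The counts of a gate's cells were summed per mouse, for mice with 10 or more cells. edgeR 4.0.16 (quasi-likelihood, TMM factors, filterByExpr) was run in R 4.3.3 on all 4 groups in 1 fit per gate, with Benjamini-Hochberg adjustment, after checks on simulated counts. Exact permutation tests were coded in Python 3.11.15 with numpy 2.4.6, and the thinned shares used scipy 1.17.1. DESeq2 1.42.0, other scalings, filters, gates and replicates were alternatives. Fits with libraries as replicates also took in barcodes without a hashtag call. A further alternative subtracted the mean S100a8 and S100a9 UMIs per erythroid cell of the library. It changed no call among the 10 named fold changes it covered, all in granulocyte progenitors and neutrophils, but an unchanged call does not show an unchanged size. Over all settings the log2 fold change with IL1β in WT granulocyte progenitors ranged from -3.27 to -0.39 for S100a8. For S100a9 it ranged from -12.4 to -0.59. The subtraction was not scaled to depth, at medians of 11758.5 UMIs in erythroid, 2749 in HSC-like and 3640 in monocyte cells. For HSC-like cells and monocytes it gave no fold change of these genes, which decides nothing about them. Fold changes are given for members called, for S100a8 and S100a9 in the HSC-like, monocyte, neutrophil and erythroid gates whether called or not, and for list genes where called. Other uncalled values were added after they were seen. The 3 non-member genes most alike each member (50 CPM or more in a gate) are named with their r. Members and lists were chosen with earlier results of these data known. No doublet caller was run beyond double hashtags (3938 barcodes). Mouse numbers were checked for pairing in each tested gate, so that a same-number pair of mice counted once per gate. Of these 122 comparisons, 8 had deviations from the group means that correlated above 0.1, and the main fits did not pair mice by number. Mice sharing a library were processed together, so p-values over mice may understate library effects.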

Additional observations from a re-analysis of the deposited data

Results flagged for a closer look

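In 119 groups of 4 mice, 11 member values stood apart from the other 3 mice of their group, where chance alone sets apart about 1 group in 20 by Dixon's criterion. In the erythroid gate Tet2-KO IL1β mouse 1 was the highest of its group for 4 members, with 6321 CPM of S100a8 (the others 787 to 1038), 4189.7 CPM of S100a9 (600 to 777), 401 CPM of S100a6 (33.9 to 64.8) and 137 CPM of S100a11 (38.2 to 46.6).

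WT IL1β mouse 4 stood apart in 4 places. In granulocyte progenitors it had 1788 CPM of S100a8 (the others 2600.2 to 2741), 11.04 CPM of S100a6 (27.7 to 30.9) and 9.74 CPM of S100a4 (5.46 to 6.18), and in monocytes it had 227 CPM of S100a13 (312 to 325). Only S100a4 was high in this mouse, and the other 3 values were low.

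The other 3 values were all of S100a4 and all high. Tet2-KO vehicle mouse 2 had 19.2 CPM in granulocyte progenitors (the others 6.09 to 7.45). WT IL1β mouse 3 had 66.8 CPM in neutrophils (10.1 to 17.8), and Tet2-KO IL1β mouse 1 had 76.5 CPM in HSC-like cells (36.2 to 37.4).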

How the results depend on the processing

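Depth limits the HSC-like and immature myeloid progenitor gates, where single cells move S100a8 and S100a9, and S100a4 in neutrophils, which rests on a few UMIs per mouse. S100a10 in neutrophils is sparse as well. Genotype and library cannot be told apart beyond 2 libraries per group. The alternatives with relaxed gates and without granule-rich cells were chosen after seeing the data. The cause of the changes below was not tested.

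Of the 45 fold changes named, DESeq2 size factors in edgeR changed no call, DESeq2 lost 4 and gained 2 of the 44 for which it gave an adjusted p (none for S100a4 with IL1β in Tet2-KO neutrophils), missing scaling factors lost 2, libraries as replicates lost 9, stricter gates lost 4 and reversed 2, and leaving out the top 5% of cells by UMIs lost 1. Stricter gates turned the Tet2-KO HSC-like change with IL1β to -0.81 for S100a8 and -0.67 for S100a9, neither past the threshold.

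The number of members called moved by over 1.5 times as follows. Without the filter on low counts, IL1β in WT gave 2 in HSC-like cells (from 0), IL1β in Tet2-KO gave 2 in monocytes and 1 in erythroid cells (from 0), and Tet2-KO against WT gave 3 in immature myeloid progenitors and 1 each in granulocyte progenitors and neutrophils with vehicle, and 1 in HSC-like cells, 3 in immature myeloid progenitors, 4 in granulocyte progenitors, 1 in monocytes and 5 in neutrophils with IL1β. DESeq2 gave 0 in HSC-like cells for IL1β in Tet2-KO, 0 in erythroid cells for IL1β in WT, and 2 in granulocyte progenitors and 3 in neutrophils for Tet2-KO against WT with IL1β. Libraries as replicates gave 1 in granulocyte progenitors and 0 in neutrophils and erythroid cells for IL1β in WT, and 0 in neutrophils for Tet2-KO against WT with IL1β. Stricter gates gave 0 in HSC-like cells for IL1β in Tet2-KO, 0 in neutrophils for IL1β in WT and 1 in erythroid cells for IL1β in Tet2-KO. Missing scaling factors and leaving out the top 5% of cells each gave 0 in erythroid cells for IL1β in WT. Smaller moves were from 5 to 4 in WT granulocyte progenitors with IL1β (by DESeq2, without scaling factors, and under stricter and relaxed gates), from 3 to 2 in Tet2-KO neutrophils with IL1β (by DESeq2, with libraries as replicates and under stricter gates), and, without the filter, from 2 to 3 with IL1β in Tet2-KO HSC-like cells and WT neutrophils.

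Relaxed gates gave 3 in HSC-like cells for IL1β in WT, with S100a8 at 3.67 (log2, edgeR adjusted p = 0.0017), 4 in neutrophils for Tet2-KO against WT with IL1β and 1 in erythroid cells for IL1β in Tet2-KO. Without granule-rich cells the counts were 0 in HSC-like cells for IL1β in Tet2-KO, 3 in granulocyte progenitors for IL1β in WT, and 1 with vehicle and 2 with IL1β in granulocyte progenitors for Tet2-KO against WT. Not thinning cells raised the share with an S100a8 UMI to 44.4% in HSC-like cells, 83.5% in granulocyte progenitors and 65.4% in erythroid cells, and that with an S100a9 UMI to 58.8% in granulocyte progenitors, 40.5% in monocytes and 55.7% in erythroid cells.

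With the mouse number as a replicate block, 1 of the 45 fold changes lost its call, S100a10 with IL1β in WT erythroid cells (-0.68, edgeR adjusted p = 0.0684), so that no member was called there (0), and 1 member was called in immature myeloid progenitors for Tet2-KO against WT with IL1β. The block changed no other count. Leaving out 1 mouse at a time gave 0 to 3 members called in HSC-like cells and 0 to 3 in immature myeloid progenitors for IL1β in Tet2-KO, 2 to 5 in granulocyte progenitors and 0 to 2 in neutrophils for IL1β in WT, 2 to 3 in granulocyte progenitors and 0 to 4 in neutrophils for IL1β in Tet2-KO, 0 to 2 in granulocyte progenitors and 0 to 4 in neutrophils for Tet2-KO against WT with IL1β, and 0 to 1 in erythroid cells for IL1β in either genotype.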
